A study of Mus musculus with 2 samples.

Results

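Single-cell RNA sequencing counts of 9 transcription factors that direct T and NK cell fate were analysed in tumors at the site of peritoneal abrasion in mice. The factors were Tcf7, Lef1, Bach2, Satb1, Tox, Tbx21, Eomes, Gata3 and Id2, 9 genes chosen by name from the mouse genes in the files (32285 in all). Female C57BL/6 mice of 6 to 8 weeks underwent peritoneal abrasion and received syngeneic ovarian cancer cells (p53-/-, myc, Hras) by the intraperitoneal route in both groups. Daily injections were of control IgG (7 mice) or of the Activin A neutralizing antibody (8 mice), with tissue taken after 10 days per the labels, and the tumors of each group were pooled into 1 library. The mice in the labels match the study's first abrasion experiment, while it describes single-cell sequencing for a later set with fewer mice per group. Its days of treatment differ from the labels in both, and which experiment the libraries came from was not settled. The cancer cells were a single line, the hosts had an intact immune system, and no cell type was selected before sequencing. The control IgG library kept 8770 cells and the antibody library 6386 cells, with medians of 5719 and 4660 unique molecular identifiers (UMIs, each standing for 1 captured transcript) per cell, and 19 cell barcodes occurred in both libraries.

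T cells move from a naive or stem-like state, which can renew itself, to effector states that kill or release cytokines, and to states shaped by lasting antigen exposure. TCF1 (gene Tcf7) and LEF1 are related DNA-binding proteins of the first state, BACH2 represses effector genes, and SATB1 organises chromatin and is high in naive lymphocytes. T-bet (Tbx21) and EOMES are T-box factors of cytotoxic T and NK cells, TOX accompanies lasting antigen exposure, GATA3 supports CD4 T cells and the T helper type that makes interleukin 4, and ID2 blocks E proteins and is needed by NK cells and many effector cells.

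Cells were placed in classes by marker UMIs, and none of the 9 factors was used for that. In the control IgG and antibody libraries the CD8 class (Cd8a or Cd8b1, no Cd4) held 2119 and 1905 cells, the CD4 class (Cd4, no Foxp3) 698 and 578 cells, and the regulatory class (Foxp3) 35 and 19 cells. The dividing T cell class (at least 3 UMIs of Mki67, Top2a, Birc5, Cdk1 and Ccnb2) held 1317 and 815 cells, the gamma delta class (Trdc without Trac) 115 and 90 cells, and the NK class (Ncr1 or Klrb1c without CD3 genes) 226 and 257 cells. A marker left out of the gates is given for the regulatory and NK classes. None is given for the gamma delta, CD8, CD4 or dividing class. Ikzf2, a regulatory T cell factor, stood at 2826 and 2943 counts per 1000000 UMIs (CPM) in the regulatory class. It stood at 207 and 282 CPM in the CD4 class and at 555 and 1057 CPM in the gamma delta class. Klre1, an NK receptor, stood at 662 and 659 CPM in the NK class against 36.0 CPM in CD8 T cells of the control IgG library. Lyz2, a myeloid gene, stood at 45.6 CPM in the control and 1830 CPM in the antibody regulatory class, where 171 of its 176 UMIs lay in 1 cell, and at 262 and 22.0 CPM in the CD4 class.

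Each level is the sum of a gene's UMIs over a class and library as CPM of all UMIs in those cells. Brackets hold 95% intervals for counting error only (exact Poisson for levels, conditional binomial for log2 ratios, exact Clopper-Pearson for shares). UMIs were taken as independent molecules. Every group is 1 library, so no test between the groups was possible, and differences between mice or in handling are not in any interval. A ratio past 1.5-fold either way with at least 50 UMIs over both libraries was counted as called. Levels are not compared between genes, because long genes such as Bach2 (347 kb) and Tox (305 kb) can be primed inside introns, and whether intronic reads were counted is not given in the sources used here.

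Tcf7 was highest in gamma delta T cells and close to absent in Foxp3 cells. Its level in the control IgG and antibody libraries was 520 and 489 CPM in gamma delta T cells, 202 and 181 CPM in NK cells, 158 and 150 CPM in CD8 T cells, 166 and 129 CPM in CD4 T cells, and 55.8 and 39.7 CPM in dividing T cells. The gamma delta class stood above the NK, CD4 and CD8 classes in both libraries. Among those classes only neighbours in the rank order of each library had overlapping intervals. The log2 ratio of NK over CD8 was 0.35 [0.12, 0.57] with control IgG and 0.27 [0.03, 0.50] with the antibody. In the regulatory class, 1 Tcf7 UMI was found in 35 control cells and 0 in 19 antibody cells. In the control library the regulatory level was 32.7-fold below that of CD4 T cells, a log2 ratio of -5.03 [-10.34, -2.55]. That fold rests on 1 UMI, under the floor of 3 counts (15.2 CPM). In the antibody library, with 0 UMIs, the interval of the log2 ratio ended at -1.74 on its upper side. A floor of 3 counts (31.2 CPM) lies 4.13-fold below the CD4 level. The regulatory interval in that library, 0 to 38.4 CPM, overlapped that of dividing T cells. Median depth was alike in the regulatory and CD4 classes (4208 and 4324 UMIs per cell with control IgG), and the regulatory gate did not ask for Cd4.

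Lef1 was also highest in gamma delta T cells, at 604 and 469 CPM, but it stayed well above 0 in Foxp3 cells. It stood at 341 and 271 CPM in CD8, 330 and 255 CPM in CD4, 271 and 234 CPM in NK, and 171 and 134 CPM in dividing cells. In the regulatory class 29 and 20 UMIs gave 147 and 208 CPM. The regulatory level of Lef1 was 2.24-fold below CD4 T cells with control IgG (log2 ratio -1.17 [-1.75, -0.64]) and 1.22-fold below with the antibody, with a log2 interval of -1.01 to 0.35 that spans 0. CD8 and CD4 T cells had overlapping Lef1 intervals in both libraries.

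Bach2 and Satb1 both had gamma delta T cells and NK cells above the other 4 classes and dividing T cells lowest, while the regulatory class ranked differently. Bach2 stood at 901 and 1046 CPM in gamma delta T cells, 851 and 872 CPM in NK cells, 343 and 331 CPM in CD8, 273 and 232 CPM in CD4, 132 and 146 CPM in regulatory, and 89.1 and 100 CPM in dividing T cells. The gamma delta and NK intervals of Bach2 overlapped in both libraries, as did the regulatory and dividing intervals. Satb1 stood at 752 and 1077 CPM in gamma delta T cells, 724 and 843 CPM in NK cells, 273 and 283 CPM in CD8, 253 and 281 CPM in regulatory, 224 and 239 CPM in CD4, and 83.9 and 118 CPM in dividing T cells. For Satb1 the gamma delta and NK intervals overlapped with control IgG and were apart with the antibody. Genes over 100 kb held 17.4% and 17.7% of UMIs in gamma delta T cells and 16.3% and 17.4% in NK cells. In CD8 T cells they held 14.2% and 14.9%. The part of gene length in the class order of Bach2, Satb1 and Lef1 was not tested. Over the 12 sums of class and library, Pearson's r of log2(CPM + 10) between Bach2 and Satb1 was 0.94, the highest of the 36 pairs of factors, and these points share libraries and cell classes.

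As CPM, a share of UMIs and not a count per cell, dividing T cells had lower Tcf7, Lef1, Bach2, Satb1 and Eomes than CD8 T cells outside division. The log2 ratio of dividing over CD8 was -1.51 and -1.92 for Tcf7, -0.99 and -1.02 for Lef1, -1.94 and -1.72 for Bach2, and -1.70 and -1.27 for Satb1 (control IgG and antibody). Eomes was also lower past the fold (-0.79 and -0.85), and Tox was lower short of it (-0.51 and -0.57). The dividing class mixed cells with Cd8 genes (925 and 588) and cells with Cd4 (224 and 126). Eomes stood at 14.8 and 21.8 CPM in the former, against 21.1 and 30.7 CPM in CD8 T cells. In dividing cells with Cd4 it stood at 3.63 and 5.14 CPM (9 and 7 UMIs). The part of this mix in the Eomes ratio was not tested. Id2, Tbx21 and Gata3 were nearer to the CD8 level, at -0.19 and -0.33 for Id2, -0.15 and -0.34 for Tbx21 and 0.02 and -0.14 for Gata3. Dividing cells were deeper, with medians of 10490 and 9318 UMIs against 4364 and 3973 in CD8 T cells, and 10.4% and 10.9% of their UMIs lay in genes over 100 kb against 14.2% and 14.9% in CD8 T cells. Their part in the lower levels was not tested. By the share of cells with a UMI at full depth, Lef1 and Eomes were higher in dividing cells. A Lef1 UMI was found in 66.1% and 54.7% of them against 59.6% and 47.7% of CD8 T cells. For Eomes the shares were 11.6% and 12.3% against 8.59% and 9.34%. Tcf7 and Bach2 were lower by this share too. Satb1 was found in 42.1% and 42.7% against 42.9% and 39.4%.

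Both T-box factors were highest in NK cells. Tbx21 stood at 287 and 449 CPM in NK cells, 151 and 211 CPM in gamma delta, 146 and 201 CPM in CD8, 142 and 195 CPM in CD4, and 131 and 158 CPM in dividing T cells. The gamma delta, CD8 and CD4 levels of Tbx21 had overlapping intervals within each library, and the regulatory class held 16 and 7 UMIs. Eomes separated the classes more: it stood at 132 and 206 CPM in NK cells, 34.8 and 47.6 CPM in gamma delta (15 and 14 UMIs), 21.1 and 30.7 CPM in CD8, 12.2 and 17.1 CPM in dividing, and 4.10 and 5.96 CPM in CD4 T cells (14 and 16 UMIs). Eomes was thus 6.28-fold higher in NK than in CD8 cells with control IgG and 6.71-fold higher with the antibody, and 5.13-fold and 5.16-fold higher in CD8 than in CD4 T cells. The regulatory class held 1 and 0 Eomes UMIs, at or under the floor of 3 counts.

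Tox had a different order, with CD4, regulatory and CD8 T cells above NK and gamma delta T cells, and dividing T cells level with NK cells with control IgG. It stood at 646 and 728 CPM in CD4, 628 and 624 CPM in regulatory, 551 and 769 CPM in CD8, 386 and 517 CPM in dividing T cells, 383 and 378 CPM in NK cells, and 300 and 323 CPM in gamma delta T cells. The CD8 level lay below the CD4 level with control IgG (log2 ratio -0.23 [-0.30, -0.16]) and just above it with the antibody (0.08 [0.01, 0.15]). Gata3 was highest in the regulatory class on 20 and 17 UMIs, at 101 and 177 CPM, followed by CD4 T cells at 73.0 and 99.8 CPM, with overlapping intervals. Gata3 was lower in CD8 than in CD4 T cells in both libraries, at 45.0 and 61.0 CPM (log2 ratios of CD8 over CD4 of -0.70 and -0.71). Id2 stood at 717 and 741 CPM in NK, 607 and 663 CPM in CD4, 559 and 630 CPM in CD8, 489 and 500 CPM in dividing, 370 and 374 CPM in regulatory, and 281 and 353 CPM in gamma delta cells. The gamma delta and regulatory classes had the lowest Id2 levels, with overlapping intervals.

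**Figure D1:**
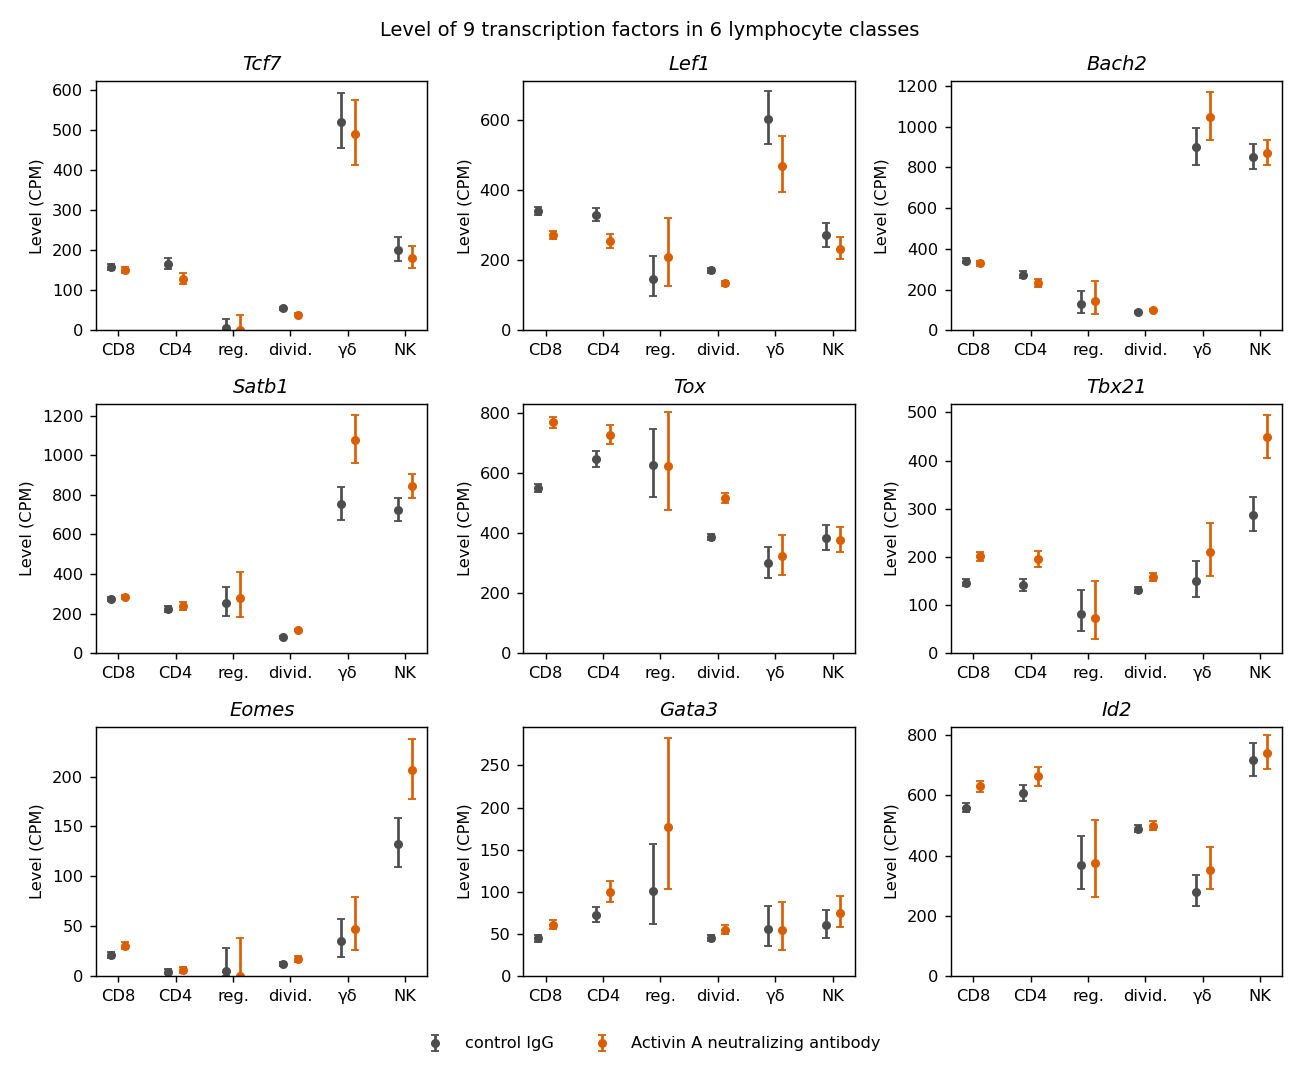
Level of each factor (vertical axis, CPM, linear from 0) in 6 lymphocyte classes (horizontal axis) for control IgG (grey) and the Activin A neutralizing antibody (orange), 1 library each. Points are summed levels and bars are 95% Poisson intervals for counting error. Tcf7 and Lef1 peak in gamma delta T cells, Tbx21 and Eomes in NK cells, and Tcf7 is near 0 in the regulatory class. Bach2 and Satb1 are highest in gamma delta T cells and NK cells. The intervals of these classes overlap for Bach2 in both libraries and for Satb1 with control IgG.

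Other cell types gave a background for these levels. In macrophages, gated by C1q genes and Csf1r without CD3 genes, Tcf7 stood at 1.05 and 1.63 CPM, Tbx21 at 2.85 and 4.48 CPM, and Tox at 4.11 and 9.37 CPM. Cells with at least 2000 UMIs were thinned to that number, and shallower cells were left out (44 and 62 CD8 T cells). A Tcf7 UMI was then found in 24.0% [22.2, 25.9] and 22.8% [20.9, 24.8] of CD8 T cells against 0.417% and 0.262% of macrophages. The median depths of all macrophages were 7284 and 6044 UMIs. Without thinning these shares were 36.8% and 32.6% of CD8 T cells. Bach2, Satb1 and Id2 were also present in other cell types. Bach2 stood at 1588 and 1883 CPM in B cells and 179 and 158 CPM in macrophages, Satb1 at 550 and 721 CPM in B cells, and Id2 at 294 and 390 CPM in macrophages. BACH2 is also a regulator of B cell differentiation. In free RNA (barcodes under 100 UMIs) Tox stood at 77.4 and 124 CPM and Tbx21 at 42.4 and 64.6 CPM, both below their CD8 levels in the same library. In the cells with CD3 genes outside the 6 classes, Tcf7 stood at 273 and 317 CPM and Lef1 at 436 and 417 CPM. Bach2 stood there at 661 and 644 CPM and Satb1 at 570 and 654 CPM. These 4 levels were above those of the CD8 and CD4 classes. Tox (436 and 558 CPM) and Id2 (416 and 479 CPM) were below them.

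By library, no factor passed 1.5-fold in CD8 T cells, but 5 of 9 had intervals above 0 and 1 below. Over all genes the interval lay above 0 for 20.1% and below 0 for 12.5%. Intervals narrow with more UMIs, and these shares are not matched to the UMIs of the factors. Of all 10541 genes with enough UMIs in this class, 6.33% were called, with a median log2 ratio of 0.03, and the median of the 9 factors was 0.17. Tox went from 551 to 769 CPM with the antibody, a log2 ratio of 0.48 [0.43, 0.53]. Tbx21 went from 146 to 201 CPM (0.46 [0.36, 0.56]), Eomes from 21.1 to 30.7 CPM (0.54 [0.28, 0.81]) and Gata3 from 45.0 to 61.0 CPM (0.44 [0.25, 0.62]). Id2 was nearer to the median of all genes, with 559 and 630 CPM (0.17 [0.12, 0.22]). Lef1 was the factor with an interval below 0, with 341 and 271 CPM (-0.33 [-0.41, -0.25]). For Tcf7, Bach2 and Satb1 the intervals spanned 0 (log2 ratios of -0.07, -0.05 and 0.06). The mitochondrial share of CD8 UMIs was 3.42% and 2.62% and Malat1 took 0.839% and 0.930%, and their part in these ratios was not tested. In free RNA Tox (77.4 and 124 CPM), Tbx21 (42.4 and 64.6 CPM), Eomes (6.21 and 11.9 CPM) and Gata3 (12.3 and 19.3 CPM) were also higher with the antibody. Satb1, Id2 and Bach2 were higher there too, and Tcf7 (47.0 and 42.5 CPM) and Lef1 (56.4 and 52.7 CPM) were lower. With free RNA subtracted the log2 ratio of Tox was 0.48, but the free RNA share of CD8 T cells rested on 1 and 4 haemoglobin UMIs.

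In CD4 T cells 8 factors had 50 UMIs, with a median log2 ratio of 0.11 against 0.01 over all genes. The share of all genes with intervals above or below 0 was not counted in this class. None of the 8 passed 1.5-fold, where 8.1% of 8495 genes did. Tbx21 stood at 142 and 195 CPM (log2 ratio 0.47 [0.28, 0.65]) and Gata3 at 73.0 and 99.8 CPM (0.45 [0.20, 0.71]). Tcf7 stood at 166 and 129 CPM (-0.36 [-0.56, -0.17]), Lef1 at 330 and 255 CPM (-0.37 [-0.51, -0.23]) and Bach2 at 273 and 232 CPM (-0.24 [-0.38, -0.09]). In this pair of libraries Tcf7, Lef1 and Bach2 thus lay below 0, and Tbx21 and Gata3 above it. Among all counted genes of the class these 5 ratios stood at percentiles 10.5, 9.99, 19.2, 92.8 and 92.3. Tox stood at 646 and 728 CPM (0.17 [0.08, 0.26]) and Id2 at 607 and 663 CPM (0.13 [0.04, 0.22]), while the interval of Satb1 spanned 0. Lyz2, at 262 CPM in the control and 22.0 CPM in the antibody CD4 class, moved with these groups. In the control CD4 class 372 of its 892 UMIs lay in 1 cell, and 6 of 698 cells held 10 or more. The part of Lyz2 in the ratios was not tested.

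NK cells were the class in which factors passed the fold, and these were both T-box genes. Of 5427 genes, 8.88% were called in NK cells, against 2 of the 9 factors. Tbx21 stood at 287 CPM with control IgG and 449 CPM with the antibody (256 and 411 UMIs), a log2 ratio of 0.64 [0.42, 0.88]. Eomes stood at 132 and 206 CPM (118 and 189 UMIs), a log2 ratio of 0.64 [0.30, 0.99]. Both libraries of NK cells stood above every T cell class for these genes. Thinning to 2000 UMIs left out 7 and 20 shallower NK cells. A Tbx21 UMI was then found in 41.1% [34.5, 47.9] and 56.1% [49.5, 62.5] of NK cells against 0.833% and 0.787% of macrophages. Eomes was found in 24.7% [19.1, 30.9] and 34.2% [28.2, 40.6] of NK cells, with overlapping intervals. Median depth was 3497 and 3179 UMIs per NK cell. Without thinning the shares were 58.0% and 69.6% for Tbx21 and 35.8% and 42.8% for Eomes. The call depended on the gate and the measure. With no exclusion of cells carrying markers of other lineages the log2 ratios of Tbx21 and Eomes were 0.54 and 0.53, and with cells of 1 CD3 UMI admitted they were 0.57 and 0.55, all under the fold. With the mean of per-cell CPM, Eomes stood at 0.57. As log2 ratios of the thinned shares of cells, Tbx21 stood at 0.45 and Eomes at 0.47, also under the fold. NK cells made up 2.58% of kept cells with control IgG and 4.02% with the antibody. Lyz2 in them stood at 61.6 and 166 CPM, with 22 of 55 and 76 of 152 UMIs in 1 cell of each library. Genes over 100 kb held 16.3% and 17.4% of the NK UMIs. In free RNA Tbx21 stood at 42.4 and 64.6 CPM and Eomes at 6.21 and 11.9 CPM. The part of these values in the ratios was not tested.

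Dividing T cells had no factor past 1.5-fold, with 5.73% of 10904 genes called, but 6 intervals lay above 0 and 2 below. Over all genes these shares were 20.6% above and 12% below, again not matched to the UMIs of the factors. Satb1 stood at 83.9 and 118 CPM (0.49 [0.37, 0.61]), Tox at 386 and 517 CPM (0.42 [0.37, 0.48]) and Eomes at 12.2 and 17.1 CPM (0.48 [0.16, 0.80]). Tcf7 stood at 55.8 and 39.7 CPM (-0.49 [-0.68, -0.31]) and Lef1 at 171 and 134 CPM (-0.35 [-0.46, -0.25]). Bach2, at 89.1 and 100 CPM, had a ratio above 0 (0.17 [0.05, 0.29]), unlike in CD4 T cells. In gamma delta T cells 0 of 7 counted factors passed, with 12.1% of 2704 genes called, and Satb1 had the interval above 0 (752 and 1077 CPM, 0.52 [0.29, 0.75]) and Lef1 the one below (604 and 469 CPM). Over all genes in that class 6.77% of intervals lay above 0 and 5.58% below, also without such matching. Gzma, which encodes granzyme A, differed far more between the gamma delta classes, at 90.6 and 540 CPM (39 and 159 UMIs, 2.58 [2.06, 3.12]), and its part in the ratios of the factors was not tested. In the regulatory class 3 factors had 50 UMIs (Satb1, Tox and Id2), none passed, and 27.3% of 1067 genes were called, so that 35 and 19 cells gave little resolution.

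**Figure D2:**
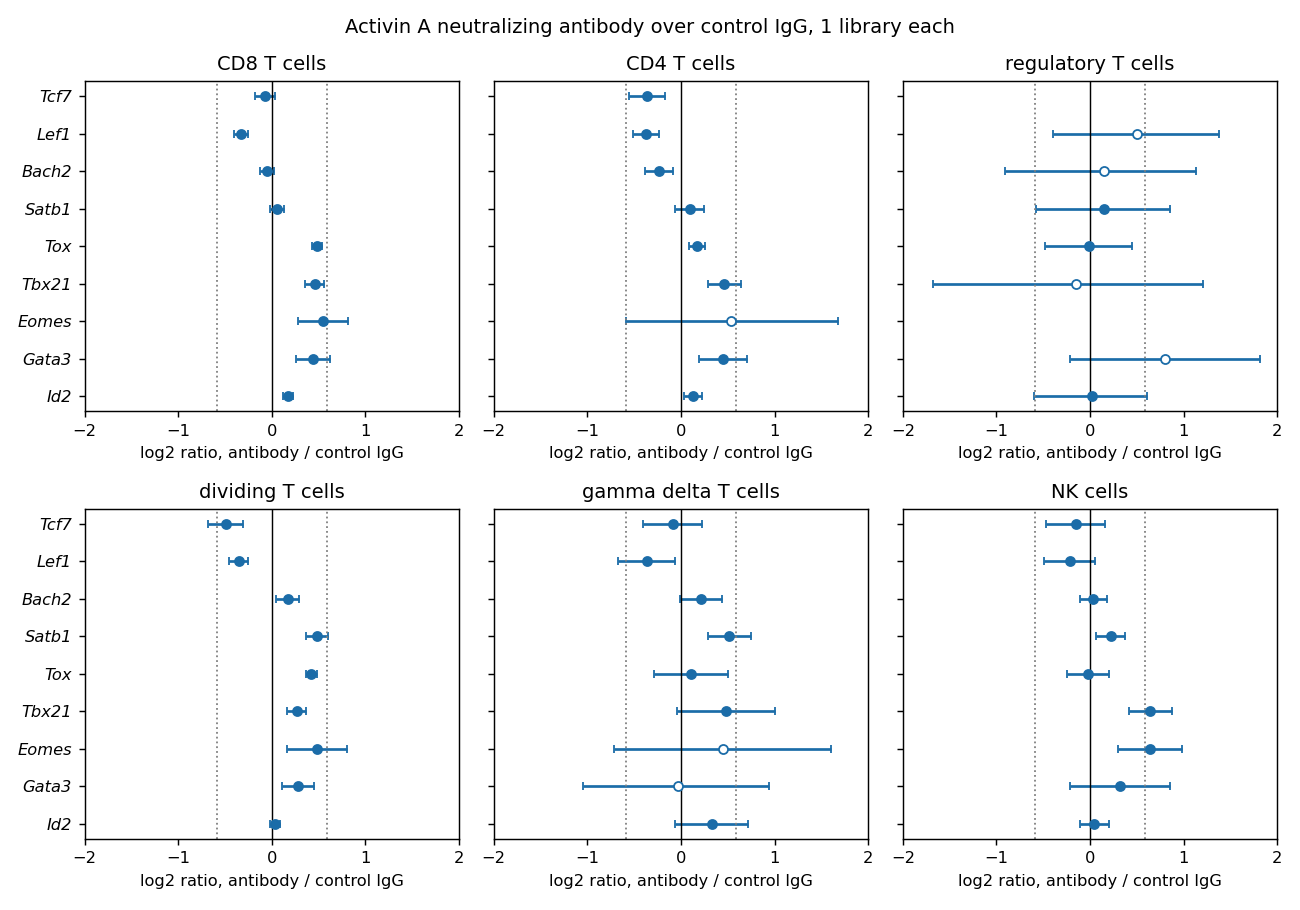
Log2 ratio of each factor, antibody over control IgG (log2 axis), in each lymphocyte class, with 95% conditional binomial intervals for counting error and lines at 1.5-fold either way. Tbx21 and Eomes pass the upper line in NK cells, and Lef1 lies below 0 in CD8, CD4, dividing and gamma delta T cells.

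Within CD8 T cells the factors divided along cytotoxic gene expression in each library on its own. Cells with a UMI of Gzma, Gzmb or Prf1, which encode granzymes and perforin, were 64.3% and 65.8% of the class. Of the 9 factors, 5 passed 1.5-fold the same way in both libraries, where 6.16% of 8952 genes did. With control IgG, Tcf7 stood at 80.3 CPM in cells with such a UMI and 342 CPM in cells without, and with the antibody at 80.9 and 315 CPM (log2 ratios -2.09 [-2.24, -1.95] and -1.96 [-2.13, -1.80]). Bach2 stood at 204 and 668 CPM, then 221 and 589 CPM (-1.71 and -1.41). Satb1 stood at 182 and 485 CPM, then 219 and 435 CPM (-1.41 and -0.99), and Lef1 at 234 and 592 CPM, then 193 and 456 CPM (-1.34 and -1.24). Tcf7, Lef1, Bach2 and Satb1 were therefore lower, and Id2 was higher in cytotoxic cells, at 645 and 358 CPM, then 703 and 456 CPM (0.85 and 0.63). Tox was close to equal on both sides (log2 ratios 0.03 and -0.06), and Tbx21 leaned to the cytotoxic side below the fold (0.49 and 0.31). Cells with a granzyme or perforin UMI were deeper, with medians of 4927 and 4275 UMIs against 3749 and 3467. Genes over 100 kb took 13.7% of UMIs in these cells against 15.4% in the others with control IgG, and 14.5% against 16.1% with the antibody, while Malat1 took 0.805% against 0.918% and 0.895% against 1.01%. The part of these values in the split was not tested. With at least 3 such UMIs as the gate, Id2 stood at 0.53 with the antibody, under the fold.

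Tcf7 UMIs divided CD8 T cells in a like way, with 4 of 8 other factors past the fold in both libraries, where 7.55% of 8954 genes did. In cells with a Tcf7 UMI, Bach2 was higher than in cells without (log2 ratios 1.97 and 1.85), as were Satb1 (1.70 and 1.23) and Lef1 (1.44 and 1.40), and Id2 was lower (-0.95 and -0.90). Tox differed less, at -0.35 and -0.41. Genes over 100 kb took 15.2% of UMIs in cells with a Tcf7 UMI against 13.6% in cells without with control IgG, and 15.9% against 14.5% with the antibody, and their part was not tested. Cells with a Tcf7 UMI were not deeper here (medians of 4095 and 3809 UMIs against 4605.5 and 4067), and with Tcf7 read after thinning the Bach2 log2 ratios were 1.67 and 1.60. These genes share the cells and the libraries of the split.

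**Figure D3:**
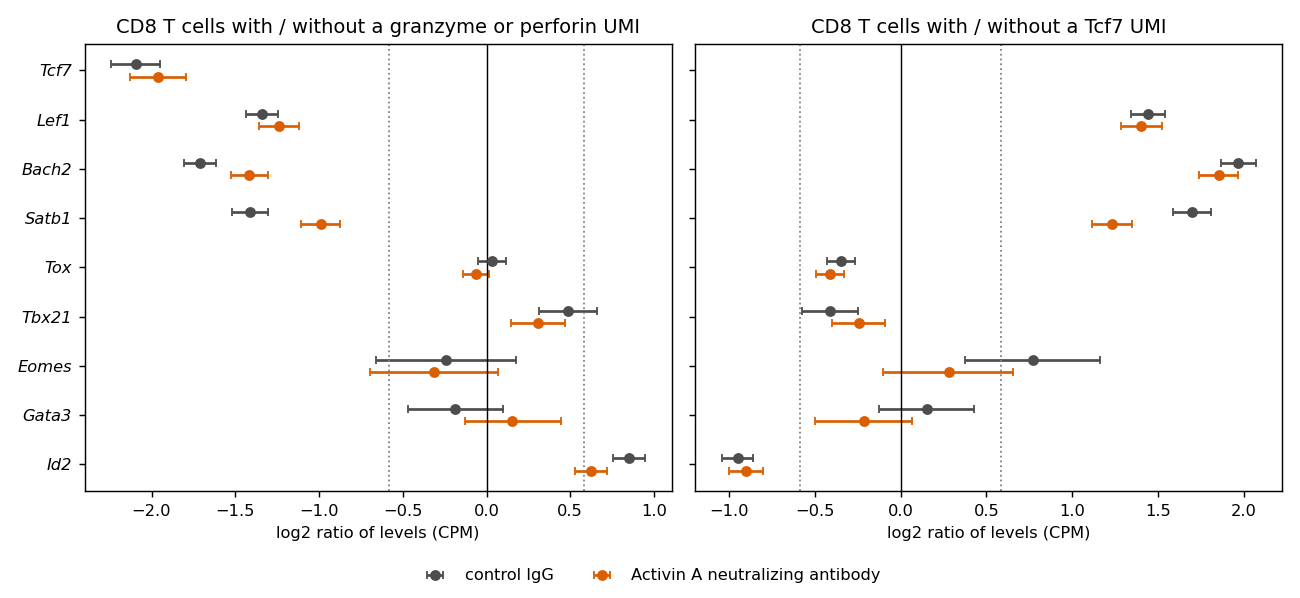
Log2 ratio of each factor in CD8 T cells with over without a granzyme or perforin UMI, and with over without a Tcf7 UMI, in each library, with 95% intervals for counting error. Tcf7, Bach2, Satb1 and Lef1 are lower and Id2 higher in cells with a granzyme or perforin UMI, while Tox lies near 0.

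Of the 4 genes lower together in cytotoxic CD8 T cells, promoter windows were read from RefSeq (GRCm38.p6, 250 bases before to 50 after each start). The core CTTTGA of sites bound by TCF and LEF proteins, searched on both strands, lay in 2 of their 12 windows, against 16.0% of 32851 windows of all genes. Some windows of Lef1 overlap each other, as do some of Satb1, so the 12 are not all separate. The T-box core GGTGTGA lay in 0 of 16 windows of the 8 factors with an entry, against 3.98% of all windows. A match is a description of letters and not a bound site. The windows that hold the TCF and LEF core are shown for that reason over the 250 bases before the start, 5′ to 3′ on the plus strand, with its reverse complement in capitals. Both lie inside the genes, at chr4:32417185-32417434 for Bach2 and chr3:131156044-131156293 for Lef1. The full windows of 300 bases hold 50 annotated exonic bases of Bach2 and 0 of Lef1.
Bach2: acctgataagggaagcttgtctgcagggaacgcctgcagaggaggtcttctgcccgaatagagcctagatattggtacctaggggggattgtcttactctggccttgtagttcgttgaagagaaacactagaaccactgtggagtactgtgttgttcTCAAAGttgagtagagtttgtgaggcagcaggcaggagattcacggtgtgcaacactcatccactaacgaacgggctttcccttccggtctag
Lef1: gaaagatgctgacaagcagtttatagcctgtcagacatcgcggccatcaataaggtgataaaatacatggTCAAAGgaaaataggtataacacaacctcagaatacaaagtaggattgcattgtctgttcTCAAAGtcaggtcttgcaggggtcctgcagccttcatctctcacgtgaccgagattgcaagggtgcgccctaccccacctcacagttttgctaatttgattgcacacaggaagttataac

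The 9 genes lie on 7 chromosomes in GRCm38 (GENCODE M21). Tcf7 (chr11:52252371-52283014) and Tbx21 (chr11:97098071-97115331) share chromosome 11, and Tox (chr4:6686353-6991557) and Bach2 (chr4:32238804-32586108) share chromosome 4. Lef1 lies at chr3:131110471-131224356, Gata3 at chr2:9857078-9890034 and Eomes at chr9:118478212-118486132. Id2 lies at chr12:25093799-25097140 and Satb1 at chr17:51736187-51833290. Gata3, Lef1, Bach2, Tcf7 and Satb1 overlap other annotated genes on their own strand, and how reads in the shared stretches were counted was not checked.

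Other regulators of T cell fate were counted by the same fold. In CD8 T cells, where 6.33% of all genes were called, 2 of 21 such genes were higher and 0 lower, with a median log2 ratio of 0.19 against 0.03 over all genes. These were the early response genes Nr4a1 (53.7 and 81.6 CPM, 0.60) and Nr4a3 (38.9 and 66.8 CPM, 0.78). Both also passed the fold in dividing T cells (1.10 and 1.07), where 5.73% of all genes were called. In NK cells, where 8.88% were called, Nr4a3 passed it (40.3 and 85.1 CPM, 1.08) and Nr4a1 did not (0.36). In CD4 T cells, where 8.1% of all genes were called, 4 of 20 were higher and 1 lower, among them Nr4a3 (46.9 and 123 CPM, 1.39), Irf8 (26.4 and 67.8 CPM, 1.36) and, lower, Klf2 (173 and 91.2 CPM, -0.93), which keeps naive cells in circulation. In the regulatory class (35 and 19 cells) 27.3% of all genes were called, and 3 of 7 such regulators were higher. These were Tcf12 (45 and 40 UMIs, 0.87 [0.22, 1.52]), Foxo1 (56 and 49 UMIs, 0.85 [0.26, 1.42]) and Rora (81 and 69 UMIs, 0.81 [0.32, 1.29]). Genes over 100 kb held 13.8% and 16.6% of UMIs in this class, and Malat1 took 0.826% and 1.28%. Their part in these ratios was not tested. Among paralogs of the factors, Tox2 passed the fold in opposite directions, with 5.72 and 9.89 CPM in CD8 T cells (0.79) and 45.7 and 29.8 CPM in CD4 T cells (-0.62). The difference between these classes was not tested.

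The shares of all genes called, 6.33% in CD8, 8.1% in CD4 and 27.3% in regulatory T cells, stand behind the counts of the other lists too. Of 8 naive and memory genes, 0 were higher and 2 lower in CD8 T cells (median log2 ratio -0.28). These were Il7r, the interleukin 7 receptor (335 and 220 CPM, -0.61), and Dapl1 (26.3 and 16.9 CPM, -0.64). In CD4 T cells 2 of 8 were lower (median -0.36), namely Dapl1 (-1.46) and Slamf6 (163 and 96.8 CPM, -0.75). In the regulatory class Il7r was higher (1.08) and Cxcr3 lower (-1.74) of 2 counted. Of 10 effector genes in CD8 T cells, Gzma (1039 and 581 CPM, -0.84) and Klrg1 (19.5 and 11.4 CPM, -0.77) were lower and none was higher. Gzmk was the 1 of 7 that was lower in CD4 T cells (-0.64), and Nkg7 the 1 of 4 in the regulatory class (-0.96). Of 10 genes of chronic stimulation, Rgs16 (35.8 and 73.5 CPM, 1.04) and the inhibitory receptor Lag3 (98.2 and 151 CPM, 0.62) were higher in CD8 T cells, and Lag3 was the 1 of 9 that was higher in CD4 T cells (39.9 and 68.1 CPM, 0.77). Ctla4 was the 1 of 3 that was lower in the regulatory class (1691 and 988 CPM, -0.78).

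Genes whose levels over the 12 class and library sums were most like those of each factor were taken from 10085 genes by Pearson's r of log2(CPM + 10), where the points share libraries and cells. For Tcf7 these were Lyst (0.988), Slc9a9 (0.978) and Disp1 (0.977), and for Lef1 they were Fam172a (0.955), Smyd3 (0.934) and Nlk (0.930). Bach2 was followed by Bcl2 (0.980), Tbc1d5 (0.980) and Jak1 (0.974), and Satb1 by Ssbp2 (0.983), Abl1 (0.980) and Strn3 (0.975). Tbx21 was most like Fzd5 (0.983), Arhgef2 (0.968) and Nfatc1 (0.952). The NK receptor gene Klre1 (0.977) led for Eomes, before Lrrk1 (0.971) and Ctla2b (0.966). Tox was nearest to Trerf1 (0.926), Xylt2 (0.915) and Agap2 (0.913), Gata3 to Cyfip1 (0.962), Sh3rf1 (0.959) and Ell2 (0.958), and Id2 to Car5b (0.954), Cmc1 (0.925) and Aamp (0.896). Among the factors themselves, r was 0.88 between Tbx21 and Eomes, 0.80 between Tcf7 and Lef1, and -0.66 between Tcf7 and Gata3. The regulatory points rest on 1 and 0 UMIs of Tcf7, under the floor of 3 counts, and on 20 and 17 UMIs of Gata3. Their part in the r values of Tcf7, with other factors and with the genes most like it, was not tested.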

How the data were processed

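Single-cell libraries of pooled tumor tissue, 1 per group, were analysed. The deposited values were raw UMI counts per gene and barcode, which the authors made with Cell Ranger (7.0.1 in the submitters' processing notes, version 4 in the file headers) on mm10. Barcodes were kept where they held 1000 to 8500 detected genes and 1000 to 100000 UMIs, with no more than 10% of UMIs mitochondrial. They were gated by marker UMIs, after cells with 3 or more UMIs of B cell, macrophage, fibroblast or cancer genes were left out. UMIs were summed per class and library as CPM (Python 3.11.15, numpy 2.4.6, scipy 1.17.1). The ratio code was tested on simulated data. Scrublet called 0 doublets in both libraries and was taken not to have worked, so no doublets were removed. Of 32285 gene IDs, 99.8% matched GENCODE M21. The factors and gene lists were chosen with earlier results of these data known. Named were all 9 factors, the 3 genes most like each, and from each list up to 3 genes with the largest called ratio in CD8, CD4 and regulatory T cells. Total UMIs were 98174850 (control IgG) and 74117462 (antibody). One listed gene, and the comparison that needed it, are not reported here. Antibodies to TGFβ were not analysed here.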

Additional observations from a re-analysis of the deposited data

Results flagged for a closer look

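The ratio of Bach2, antibody over control IgG, lay on opposite sides of 0 in different T cell classes, with both counting intervals excluding 0. It was 0.17 on the log2 scale in dividing T cells and -0.24 in CD4 T cells. Over the alternatives tried, the sign was kept in 10 of 11 for dividing T cells, from -0.01 as a ratio of thinned shares of cells to 0.54 [0.20, 0.88] in those with Cd4 (0.07 [-0.08, 0.22] in those with Cd8 genes), and in 9 of 9 for CD4 T cells. The difference between the classes was not tested, since each class came from 1 library per group.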

How the results depend on the processing

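No paired analysis was possible because the mice of a group were pooled into 1 library, and for the same reason no replicate could be left out. Intervals cover counting error only, and the pool of mice, depth and handling cannot be told apart from treatment. The number of factors past 1.5-fold in NK cells was 2 and became 0 when cells with 1 CD3 UMI were admitted (log2 ratios 0.57 for Tbx21 and 0.55 for Eomes), 0 without exclusion of other lineages, and 1 with the mean of per-cell CPM (Eomes at 0.57). In gamma delta T cells it was 0 and became 2 without exclusion, 1 at a mitochondrial limit of 5%, 1 without the top 5% of Scrublet scores, 2 in cells with a UMI of type 17 genes and 1 in cells without. In dividing T cells it was 0 and became 2 in the Cd4 subset. The subsets were chosen after seeing the data, and the causes were not tested. Of all genes, 8.88% passed in the whole NK class, 12.1% in the gamma delta class and 5.73% in the dividing class. Such shares are not given for the alternatives or subsets, so the changed counts have no background. Over 9 alternatives the NK log2 ratio ranged from 0.45 to 0.64 for Tbx21 and from 0.47 to 0.67 for Eomes, with the low ends from the thinned shares of cells, under the fold. Over 9 alternatives in CD8 T cells Tox ranged from 0.30 to 0.51 and Lef1 from -0.39 to -0.27, and the signs of Tcf7, Bach2 and Satb1 were kept in 9, 8 and 7 of the 9. Counts of factors stayed within 1.5 times in 63 other cases.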

Other observations

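Gamma delta T cells with a UMI of type 17 genes numbered 30 and 22 (control IgG and antibody), and those without 85 and 68. Satb1 stood at 325 and 629 CPM in the former, a log2 ratio of 0.95 [0.22, 1.69]. It was also higher in the latter (0.46 [0.22, 0.70]). Id2 stood at 266 and 402 CPM in cells without such a UMI (0.60 [0.16, 1.03]). In cells with one it stood at 336 and 166 CPM on 31 and 10 UMIs (-1.02 [-2.21, 0.04]). Dividing T cells with Cd4 (224 and 126 cells) had Tcf7 at 62.2 and 36.7 CPM (-0.76) and Satb1 at 70.2 and 114 CPM (0.70). Among dividing T cells with Cd8 genes (925 and 588 cells) 0 of the factors passed 1.5-fold. The share of all genes past the fold in these subsets is not given.

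After thinning to 2000 UMIs, Lef1 was found in 59.2% and 49.3% of CD8 T cells with a Tcf7 UMI and in 33.0% and 27.3% of those without. Tox was found in 49.4% and 53.3% of cells with a Tcf7 UMI and in 47.4% and 60.7% of those without. In NK cells Eomes was found in 27.8% and 32.3% of cells with a Tbx21 UMI and in 22.5% and 36.5% of the rest.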
